A study of Homo sapiens with 4 samples.

Results

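The collapsin response mediator proteins are encoded by 5 genes, CRMP1, DPYSL2, DPYSL3, DPYSL4 and DPYSL5, and were described on 4 Affymetrix arrays of human lung adenocarcinoma cell lines. Members were all probe sets annotated to only 1 gene, that gene being one of the 5, which gave 10 probe sets of 54675. CRMP1 and DPYSL2 each had 1 probe set, DPYSL5 had 2, and DPYSL3 and DPYSL4 had 3 each.

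The study asked how the level of G9a, a methyltransferase of lysine 9 on histone H3 and the product of EHMT2, bears on gene expression. The populations were CL1-5 cells, an invasive subline, expressing a G9a shRNA (labelled G9a shRNA2) or a control shRNA, and CL1-0 cells, the less invasive parent line, expressing HA-tagged G9a or a control vector. All 4 were stably transduced and selected with puromycin, and the labels name a type II alveolar cell as the cell basis of both lines. Each population was 1 array. Replicates are lacking, which leaves no basis for a p-value, and no difference between populations has a replicate check; precision is limited by there being so few arrays. The knockdown is 1 shRNA, so effects of that hairpin apart from G9a cannot be told apart from those of G9a.

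Collapsin response mediator proteins are cytosolic phosphoproteins best known from growing axons, where they pass the semaphorin 3A signal from neuropilin and plexin receptors to microtubules and actin. They resemble dihydropyrimidinase, an enzyme of pyrimidine breakdown, which gave the DPYSL genes their symbols, but are not known to act in that pathway. CRMP1 was reported as an invasion suppressor after comparison of CL1 sublines of differing invasiveness, so a difference between CL1-5 and CL1-0 in this gene is not independent of how the gene became known. A longer CRMP1 isoform with the opposite reported role shares most of the gene, and a single probe set cannot be assumed to tell the isoforms apart.

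Signals are the deposited MAS5 intensities on a linear scale. The array medians were 14.9 for the knockdown, 11.3 for its control, 12.3 for HA-G9a and 11.7 for the vector, over all probe sets. For ratios, signals below 3.35, the 25th percentile of all values, were set to that floor. A gene counted as measured in a comparison when its brighter array reached 12.5, the median of all values. The ratio of the median measured gene was then subtracted from each log2 ratio, and such ratios are called relative. That median log2 ratio was 0.42 for the knockdown, -0.08 for HA-G9a and -0.01 between the 2 controls. Between probe sets of 1 gene, log2 ratios of measured probe sets varied with a pooled SD of 0.54, 0.51 and 0.65 in these 3 comparisons, which serves as a technical yardstick and not as a replicate error. Probe sets differ in brightness for the same RNA, so no gene's level is set against another's; percentiles and summed signals serve to compare arrays, and bright and dim refer to the thresholds above.

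EHMT2, the targeted gene, was checked first. Its brightest probe set read 28.1 in knocked-down CL1-5 against 376 in the CL1-5 control, and 862 with HA-G9a against 420 with the vector. A dimmer one read 9.98 against 34.2 in CL1-5 and 44.2 against 38.03 in CL1-0, so its HA-G9a difference was within the yardstick between probe sets. The last stayed below the filter on all arrays, at 5.32 against 2.10 in CL1-5 and 7.89 against 3.58 in CL1-0. Of 12 type II alveolar markers, 10 had a probe set, and between 4 and 6 of them reached the filter on an array. Their summed signal was 203 in the knockdown, 273 in its control, 166 with HA-G9a and 161 with the vector. Single markers went different ways. In CL1-5, the knockdown and control signals were 12.2 and 97.9 for HOPX, and 3.87 and 29.6 for NKX2-1, the lung lineage factor. NAPSA and ABCA3 were instead higher after the knockdown, at 18.4 against 6.26 and at 47.4 against 16.2. In CL1-0, the HA-G9a and vector signals were 15.2 and 3.70 for PGC, and 60.2 and 31.2 for NKX2-1. For SFTPC, a surfactant gene, the HA-G9a signal of 6.72 was below the vector signal of 21.3.

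CRMP1 was bright in CL1-0 and dim in CL1-5. Its probe set read 2.76 in CL1-5 with the G9a shRNA, 16.1 in CL1-5 with the control shRNA, 351 in CL1-0 with HA-G9a and 433 in CL1-0 with the vector. Both CL1-5 arrays lay below both CL1-0 arrays, and the knockdown array had the lowest value. Fewer cells with the transcript and less of it per cell cannot be told apart in such bulk RNA. Within each array, these signals stood at the 20.1st percentile of all probe sets after the knockdown, the 56.0th in the CL1-5 control, the 91.2nd with HA-G9a and the 92.6th with the vector.

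Between the control populations, CRMP1 had a relative log2 ratio of -4.74 (CL1-5 control over CL1-0 vector), a 26.6-fold lower signal. The gap between the brighter CL1-5 array and the dimmer CL1-0 array was 21.8-fold as deposited. With signals below the floor set to it, among 13953 genes that reached the filter on any array, 40 had a gap of at least that size in the same direction, or 0.287%. The control populations differ in vector as well as in line, and these cannot be told apart with the arrays at hand.

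After the knockdown, CRMP1 had a log2 ratio of -2.26 before the median gene's ratio was subtracted and of -2.68 after it. The knockdown signal was below the floor, so both values rest on the floor; as deposited, the signal was at least 4.797-fold lower than in the control. With other scalings, floors or a pseudocount the ratio ran from -2.96 to -1.12, past 2-fold in each. The CL1-5 control signal of 16.1 was itself only a little above the filter. With HA-G9a, the relative log2 ratio of CRMP1 was -0.22, which is smaller than the yardstick between probe sets.

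**Figure D1:**
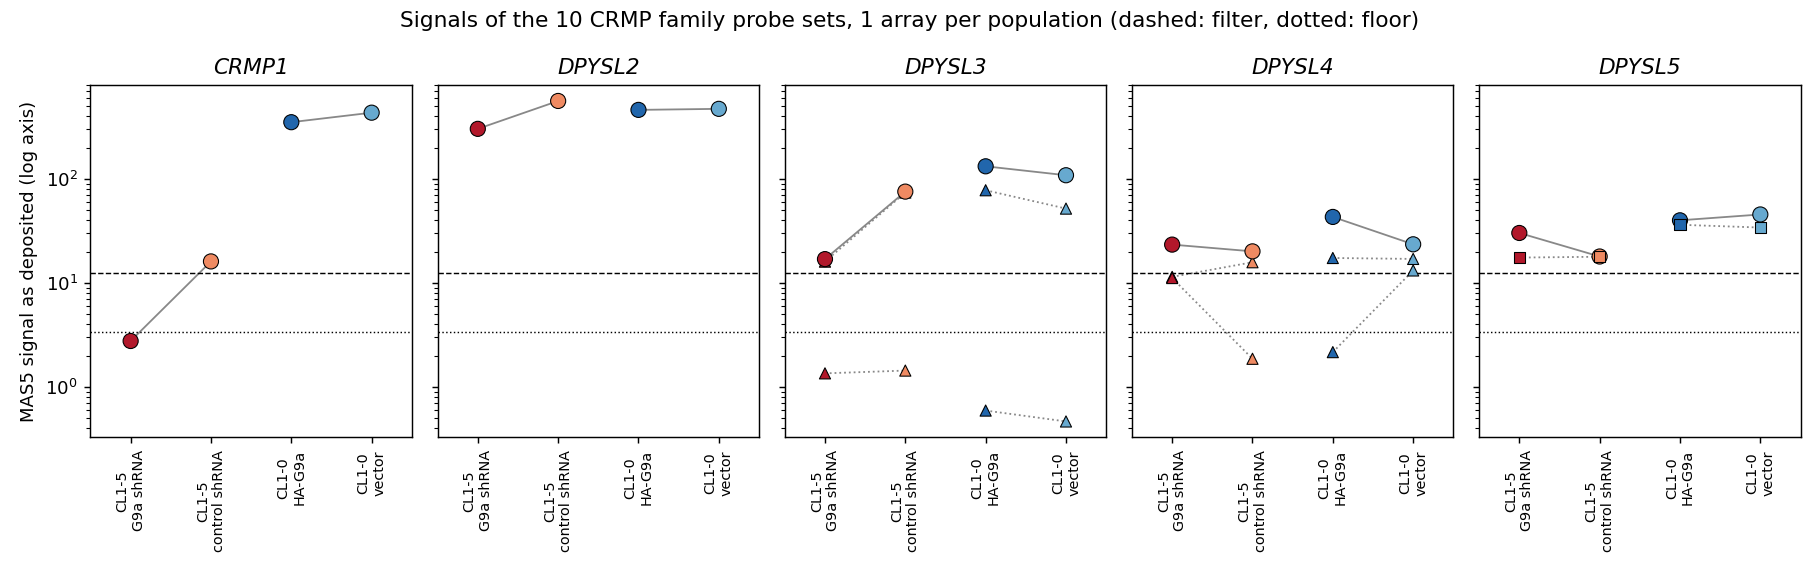
MAS5 signal as deposited (log axis) of each CRMP family probe set on each of the 4 arrays; circles mark the probe set that stands for the gene, triangles and squares the other probe sets, and grey lines join the 2 arrays of a line. CRMP1 lies at 2.76 and 16.1 in CL1-5 and at 351 and 433 in CL1-0, while DPYSL2 lies between 303 and 561 on all 4 arrays.

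The RefSeq table (GRCh38.p14) lists 4 separate transcription starts for CRMP1, 2 for DPYSL3, 2 for DPYSL5 and 1 for DPYSL4, so 4 of the 5 genes matched; DPYSL2 was not among them. The 250 bases before the outermost start are shown for CRMP1 and DPYSL3, the pair with the largest differences after the knockdown, because they differ in base composition. GC boxes, the core motif of SP1-type factors (GGGCGG on either strand), are in capitals. The CRMP1 stretch is chr4:5893087-5893336, minus strand, and the DPYSL3 stretch is chr5:147510069-147510318, minus strand, each written 5′ to 3′ along the gene.
CRMP1: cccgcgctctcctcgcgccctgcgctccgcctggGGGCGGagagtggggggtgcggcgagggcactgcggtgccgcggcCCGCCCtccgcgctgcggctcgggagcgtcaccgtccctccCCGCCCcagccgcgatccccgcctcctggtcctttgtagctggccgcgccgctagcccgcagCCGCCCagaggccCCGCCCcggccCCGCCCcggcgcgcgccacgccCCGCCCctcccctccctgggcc
DPYSL3: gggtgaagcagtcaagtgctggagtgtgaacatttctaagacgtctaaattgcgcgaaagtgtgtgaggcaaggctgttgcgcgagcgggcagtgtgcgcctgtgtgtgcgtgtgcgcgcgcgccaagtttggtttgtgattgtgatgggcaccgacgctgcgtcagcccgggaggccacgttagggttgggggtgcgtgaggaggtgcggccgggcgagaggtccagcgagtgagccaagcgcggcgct

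The CRMP1 stretch held 7 GC boxes and 37 CpG dinucleotides, and the DPYSL3 stretch 0 GC boxes and 25 CpG. Over 34943 such windows of the table the median was 11 CpG, 42.5% held at least 1 GC box, and 1.11% held 7 or more. The other CRMP1 starts had 1, 5 and 2 GC boxes in order from upstream, the inner DPYSL3 start had 3, the DPYSL4 start had 8, and the DPYSL5 starts had 1 and 0. The SNAI-type E-box CAGGTG was found in none of the 9 family windows on either strand, against 17.5% of all windows, and neither printed stretch held a CCAAT box, which 32.0% of all windows held. These are matches of letters and not measured binding. Which CRMP1 isoform each start serves was not determined, so no window is tied to the signal of the CRMP1 probe set. SP1, one of the reported CRMP1 regulators, is given with its signals further on.

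The knockdown difference of DPYSL3 was repeated by a second probe set. CRMP1 and DPYSL2 had 1 probe set each, which allowed no such check. DPYSL3 encodes CRMP4, which bundles actin filaments and is reported as a metastasis suppressor in prostate cancer. Its brightest probe set read 16.9 after the knockdown against 75.5 in the CL1-5 control, and 132 with HA-G9a against 108 with the vector. Its second probe set read 16.02 against 74.0 in CL1-5 and 77.8 against 51.8 in CL1-0. On both probe sets, the knockdown array was the lowest of the 4. Their relative log2 ratios after the knockdown were -2.58 and -2.63, a 5.96-fold and a 6.18-fold lower signal, and neither knockdown signal was at the floor. A remaining probe set was at or below 1.44 on all arrays, under the floor, and gives no ratio.

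With HA-G9a, the relative log2 ratios of DPYSL3 were 0.37 and 0.67. The first is smaller than the yardstick of 0.51 between probe sets and the second is slightly larger. Between the controls, the probe sets disagreed in sign, at -0.51 and 0.53, so no direction between the lines is given for DPYSL3. The brightest one placed both CL1-5 arrays below both CL1-0 arrays, whereas on the second the CL1-5 control lay between the CL1-0 arrays.

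DPYSL2 was bright on all arrays. It encodes CRMP2, which binds tubulin dimers and promotes axon growth. Its probe set read 303 after the knockdown against 561 in the CL1-5 control, and 461 with HA-G9a against 472 with the vector. The knockdown array was the lowest and the CL1-5 control the highest, with both CL1-0 arrays between them. After the knockdown, its log2 ratio was -0.89 before and -1.31 after subtraction of the median gene's ratio. Relative to the median gene it was thus 2.48-fold lower, but the deposited signals differed by less than 2-fold; the median gene was 1.34-fold brighter on the knockdown array. Its relative log2 ratios were 0.05 with HA-G9a and 0.27 between the controls, both within the yardstick.

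DPYSL5 encodes CRMP5, the most divergent member of the family and the target of an autoantibody seen with small cell lung cancer. Its brighter probe set read 30.2 after the knockdown against 17.9 in the CL1-5 control, and 40.0 with HA-G9a against 45.5 with the vector. The second probe set read 17.5 against 17.8 in CL1-5 and 36.2 against 34.1 in CL1-0. Both probe sets placed both CL1-5 arrays below both CL1-0 arrays. Between the controls, their relative log2 ratios were -1.33 and -0.92, so the brighter one passed 2-fold and the second did not. After the knockdown, the relative ratios were 0.33 and -0.45, of opposite sign, and with HA-G9a they were -0.10 and 0.17.

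DPYSL4, which encodes CRMP3, was dim and its probe sets disagreed. The brightest read 23.3 after the knockdown against 20.1 in the CL1-5 control, and 43.1 with HA-G9a against 23.5 with the vector. Its HA-G9a array was the highest, with the other 3 arrays close together. Its relative log2 ratio with HA-G9a was 0.96, just short of 2-fold. The second probe set had a ratio of 0.11 there. The dimmest one stood at 2.16 in HA-G9a cells against 13.2 in vector cells, a ratio of -1.89 that rests on the floor. No direction with HA-G9a is given for DPYSL4. After the knockdown, the probe sets above the filter had ratios of -0.20 and -0.89.

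**Figure D2:**
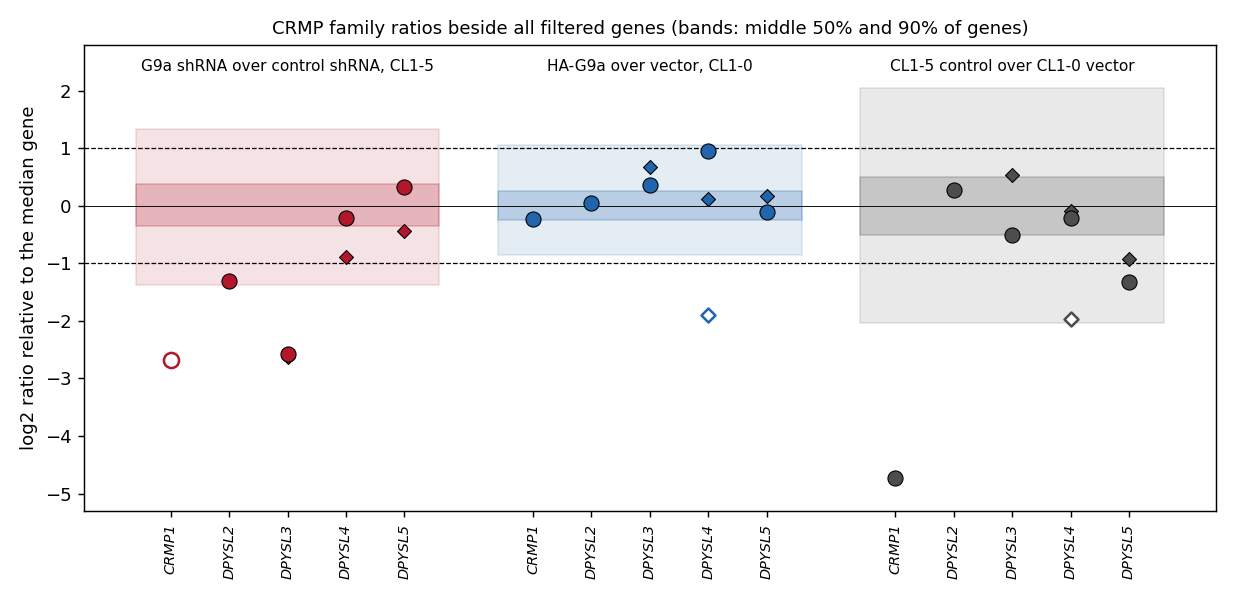
Log2 ratios relative to the median gene (vertical axis) of the measured family probe sets in the 3 comparisons; circles mark the probe set that stands for the gene, diamonds the other probe sets, open symbols a ratio in which 1 array was at the floor, and bands the middle 50% and 90% of all measured genes. CRMP1 at -2.68, which rests on the floor, and DPYSL3 at -2.58 lie below the 90% band of the knockdown comparison, whose lower edge is -1.38, and CRMP1 at -4.74 lies below that of the control comparison, whose lower edge is -2.03.

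By gene, all 5 members were measured in all 3 comparisons. After the knockdown, 3 of 5 (CRMP1, DPYSL2 and DPYSL3) were at least 2-fold lower relative to the median gene and 0 were higher, against 7.76% of all measured genes lower and 8.13% higher. With HA-G9a, 0 of 5 were higher and 0 lower, against 5.46% of all measured genes higher and 3.74% lower. Between the controls, 2 of 5 (CRMP1 and DPYSL5) were at least 2-fold lower in CL1-5 and 0 were higher, against 13.2% lower and 12.6% higher over all genes. On the probe sets that stand for the genes, 4 of 5 members had both CL1-5 arrays below both CL1-0 arrays as deposited, against 17% of all genes, but the gap was 1.01-fold for DPYSL4, 1.32-fold for DPYSL5 and 1.44-fold for DPYSL3. The knockdown and control comparisons share the CL1-5 control array, and the HA-G9a and control comparisons share the vector array.

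Genes around the family were described from lists of known partners. Counts past 2-fold, here and in the lists below, are to be read beside the shares of all measured genes. These were 7.76% lower and 8.13% higher after the knockdown, and 3.74% lower and 5.46% higher with HA-G9a. Between the controls, 13.2% were lower and 12.6% higher in CL1-5. The semaphorin 3A signal and its receptors differed gene by gene. SEMA3A, the ligand, stood at 3.49 in CL1-5 cells with the control shRNA, at 28.8 in CL1-0 cells with HA-G9a and at 63.9 in vector cells. NRP1, the ligand-binding receptor, read 312 after the knockdown against 202 in its control, and 94.8 with HA-G9a against 21.5 with the vector. The related receptor NRP2 read 2.29 after the knockdown, below the floor, against 90.5 in its control, and 26.0 with HA-G9a against 5.58 with the vector. The co-receptor PLXNA2 read 12.99 after the knockdown against 137 in its control and 5.50 with the vector. In CL1-5, both NRP2 and PLXNA2 were thus lower after the knockdown, as were CRMP1 and DPYSL3, whereas between the controls these receptors were higher in CL1-5 and CRMP1 was lower.

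Of 8 listed genes of this group, 6 were measured after the knockdown, with 3 lower and 0 higher (median relative log2 ratio -0.42). The third was the adhesion molecule L1CAM at -1.05, whose deposited signals of 9.85 and 15.3 differed by less than 2-fold. With HA-G9a, 2 of 6 were higher and 1 lower (median 0.40). Between the controls, 3 of 7 were higher in CL1-5 and 1 lower (median 0.41). The median of all measured genes is 0 on this scale by construction.

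Enzymes that act on CRMPs stayed near the median gene. Of 14 measured kinases, phosphatases and regulators, 1 was at least 2-fold lower after the knockdown and 0 higher (median 0.06). Over all measured genes, 7.76% were lower and 8.13% higher. The lower one, FYN, a SRC-family kinase, read 24.3 against 57.1. With HA-G9a, 0 of 14 passed 2-fold (median 0.02). Between the controls, 1 of 15 was higher in CL1-5 (median -0.08), namely CDK5R2, an activator of CDK5, at 14.7 against 6.88. CDK5 and GSK3B, which phosphorylate CRMP2 in turn, had relative log2 ratios of 0.29 and 0.34 after the knockdown.

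Binding partners in trafficking and the cytoskeleton did not pass 2-fold. There were 14 measured of 18 listed, and 0 passed in any of the 3 comparisons, with medians of 0.00, -0.07 and -0.17. ACTR2, FLNA and WASF1 had no probe set of a single gene. After the knockdown, the largest ratio was that of EZR, the membrane-actin linker ezrin, at 0.54, and between the controls that of CHN1, a RAC-directed GTPase-activating protein, at -0.74.

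Tubulins and microtubule-associated proteins differed in single genes. After the knockdown, 3 of 16 measured were lower and 1 higher (median -0.42). TUBB2B read 12.99 against 63.5, TUBB6 1250 against 2159, and MAP1B, an axonal microtubule stabiliser, 383 against 630. As deposited, TUBB6 and MAP1B differed by less than 2-fold and passed only relative to the median gene. MAPT, which encodes tau, read 182 against 67.9. Tubulin genes are close in sequence, so signals of single members can share RNA. With HA-G9a, 0 of 17 passed 2-fold (median -0.06), the largest ratio being that of MAPT at -0.94.

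Between the controls, 3 of 17 were lower in CL1-5 and 0 higher (median -0.33). MAP2, a dendritic microtubule-associated protein, read 5.05 in the CL1-5 control against 1267 with the CL1-0 vector. TUBA1A read 488 against 2438, and TUBB2B 63.5 against 359.

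Several neuronal markers were lower in the CL1-5 control, as CRMP1 was. Between the controls, 5 of 8 measured were at least 2-fold lower in CL1-5 and 0 higher. Over all measured genes, 13.2% were lower and 12.6% higher. SNAP25, INA and TUBB3 did not pass. Of the 5 lower markers, 3 (ELAVL3, NEFM and ELAVL4) were at or below the floor in the CL1-5 control. The list's median of -2.53 thus rests on the floor. These 3 and MAP2 were below the filter in the CL1-5 control and were measured only through the vector array, so they could only be lower. Of the 4 markers that reached the filter in the CL1-5 control, only NEFL was at least 2-fold lower. NEFL, a neurofilament chain, read 287 in the CL1-5 control against 4558 with the vector, and ELAVL3, a neuronal RNA-binding protein, 2.54 against 36.3. MAP2 belongs to this list too. The summed signal of the 13 listed genes was 4754 after the knockdown, 3857 in its control, 7620 with HA-G9a and 9408 with the vector, and 4, 4, 9 and 8 of them reached the filter in that order. After the knockdown, the markers were split, with 2 of 5 higher and 1 lower (median -0.27): NEFM read 25.002 against 1.76 and NEFL 1090 against 287, while SNAP25 read 10.9 against 40.8. With HA-G9a, 2 of 9 were higher and 0 lower (median -0.08), namely GAP43 at 1.13 and INA at 1.09. Whether the level of neuronal genes has a part in the CRMP1 difference was not tested.

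Among neuroendocrine markers, 2 of 3 measured were lower in the CL1-5 control (median -1.72), against 13.2% of all measured genes. CHGA read 9.69 against 49.3 and SYP 10.4 against 34.3. Both were below the filter in the CL1-5 control and were measured only through the vector array, so they could only be lower. CHGB, the only listed marker that reached the filter in the CL1-5 control, read 77.5 there against 55.8 with the vector. After the knockdown, 1 of 2 was higher and 1 lower (median -0.42), and with HA-G9a 0 of 3 passed (median 0.05). The summed signal of this list was 76.0 after the knockdown, 105 in its control, 192 with HA-G9a and 152 with the vector. INSM1, a defining factor of neuroendocrine cells, was at or below the floor on all arrays.

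Fibroblast markers had 3 of 3 measured lower in the CL1-5 control (median -3.20), against 13.2% of all measured genes. COL3A1 led them, at 3.75 against 330. No fibroblast marker reached the filter in the CL1-5 control. As deposited, those measured between the controls could thus only be lower in CL1-5, and those measured after the knockdown only higher. After the knockdown 1 of 2 was higher and 0 lower (median 1.08), and with HA-G9a 1 of 4 was lower and 0 higher (median -0.44). Their summed signal was 88.0 after the knockdown, 41.9 in its control, 185 with HA-G9a and 456 with the vector. Of the type II alveolar markers, 2 of 7 were higher and 2 lower after the knockdown (median -0.59), 2 of 5 were higher and 1 lower with HA-G9a (median -0.40), and 2 of 6 were higher and 0 lower in the CL1-5 control (median 0.30). The part of these markers in the CRMP1 values was not tested.

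Reported regulators of CRMP1 in lung cancer cells included SP1, NFKB1, RELA, CEBPA, YY1 and PTGS2, of which 5 were measured; PTGS2 stayed below the filter in every comparison. After the knockdown and with HA-G9a, 0 of 5 passed 2-fold (medians -0.17 and -0.32). Between the controls, 2 of 5 were lower in CL1-5 and 0 higher (median -0.14). SP1 read 275 in the CL1-5 control against 591 with the vector, and CEBPA, a differentiation factor of lung epithelium, 20.9 against 47.3. NFKB1 read 222 against 207.

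Of 9 other genes that earlier work linked to invasion of CL1 cells, 7 were measured after the knockdown, with 3 lower and 1 higher (median -0.01). SNAI2, an EMT transcription factor, read 274 after the knockdown against 682 in its control and 35.7 with HA-G9a against 6.93 with the vector. CDH1, which encodes E-cadherin, read 77.6 after the knockdown against 2.36 in its control, which is below the floor. With HA-G9a, 3 of 8 were higher and 0 lower (median 0.21): SNAI2, CDH2 and the receptor kinase gene AXL. Between the controls, 3 of 8 were higher in CL1-5 and 3 lower (median -0.47), against 12.6% and 13.2% of all measured genes. Lower in CL1-5, as CRMP1 was, were SLIT2, a guidance ligand, at 1.35 against 139, and CDH1 at 2.36 against 14.9. Their CL1-5 control signals were below the floor, so these ratios rest on it. DNAJB4, a chaperone reported as an invasion suppressor, was also lower, at 137 against 721. Many of these genes became known through comparisons of the same lines. L1CAM stands in this list and in the semaphorin list.

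Enzymes of pyrimidine metabolism were listed because the family resembles dihydropyrimidinase. Of those measured, 0 of 7 passed 2-fold after the knockdown (median 0.08) and 0 of 5 with HA-G9a (median 0.19). Between the controls, 1 of 7 was higher in CL1-5 and 1 lower (median 0.07): DPYD, the first enzyme of pyrimidine breakdown, read 15.6 against 4.39, and UPP1, a uridine phosphorylase, 300 against 621.

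**Figure D3:**
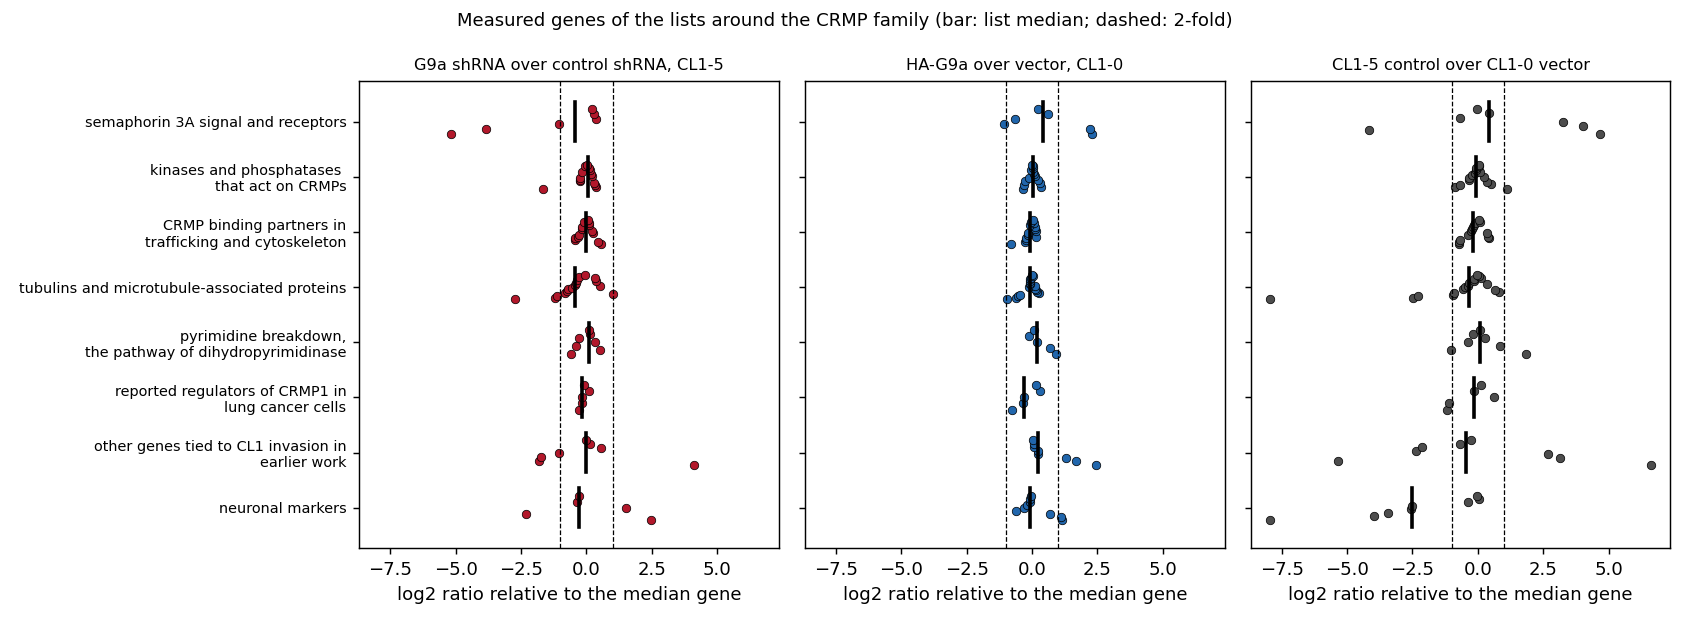
Log2 ratios relative to the median gene (horizontal axis) of the measured genes of 8 lists in the 3 comparisons; each point is a gene, the bar is the list's median and dashed lines mark 2-fold. The semaphorin group spreads from -5.17 (NRP2, a value that rests on the floor) after the knockdown to 4.66 (PLXNA2) between the controls, neuronal markers have a median between the controls of -2.53 that also rests on the floor, and binding partners lie inside the dashed lines in all 3 comparisons.

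The genes with the pattern most like a member over the 4 arrays were found by the root mean square difference of centred log2 signals, among 8883 other genes that reached 84.2, the 75th percentile of all values, on at least 1 array. With 4 arrays this is a description, and many genes that differ between the lines share such a pattern. The knockdown signals of CRMP1, KITLG, KLHL9 and MECOM were all below the floor and were set to it, so their likeness on that array, and the order of these genes, rest on the floor, and all 4 named genes reached 84.2 only on the CL1-0 arrays. Nearest to CRMP1 were PDE4B, a cAMP phosphodiesterase, at 0.34, KITLG, the ligand of the receptor KIT, at 0.45, KLHL9, a ubiquitin ligase adaptor, at 0.54, and MECOM, a zinc finger transcription factor, at 0.55. PDE4B read 4.11 after the knockdown, 10.4 in its control, 269 with HA-G9a and 364 with the vector, in the same order of arrays as CRMP1. KITLG read 0.55 after the knockdown and 17.4 in its control, and 758 with HA-G9a against 709 with the vector.

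Nearest to DPYSL3 were PLPP5 at 0.15, ZFR2 at 0.18, SEL1L3 at 0.21 and GABRA5, a GABA receptor subunit, at 0.25. PLPP5 read 37.9 after the knockdown against 202 in its control, and 288 with HA-G9a against 297 with the vector. Nearest to DPYSL2 were MAPK8IP2, a JNK scaffold, RNF10, ZNF639 and FAR1, at between 0.06 and 0.07. DPYSL4 and DPYSL5 did not reach 84.2 on any array and were not matched.

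**Figure D4:**
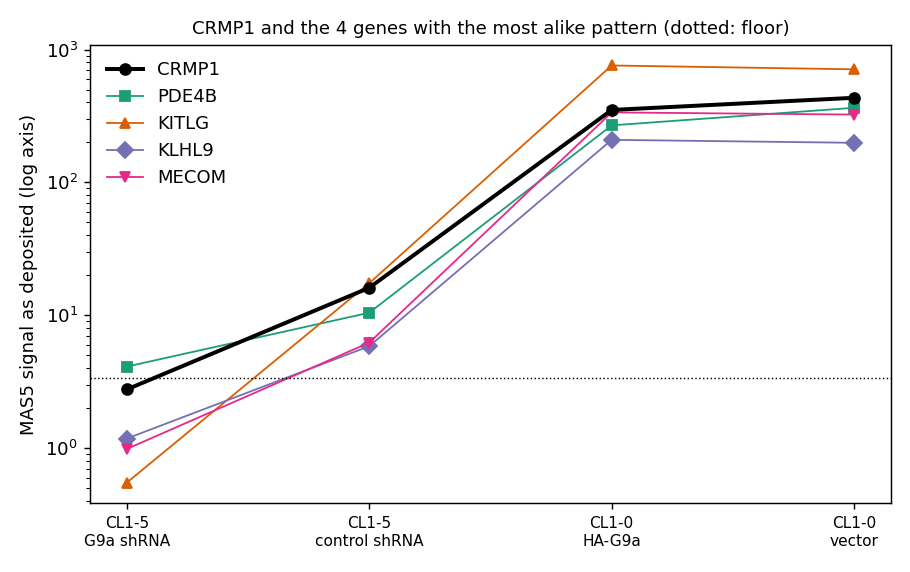
MAS5 signal as deposited (log axis) of CRMP1 and of the 4 genes with the most alike pattern on the 4 arrays; lines join the arrays to guide the eye and the dotted line is the floor of 3.35. All 5 genes read at least 199 on both CL1-0 arrays and at most 17.4 on both CL1-5 arrays, with the lowest signal on the knockdown array.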

How the data were processed

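Total RNA from 4 cell populations was labelled as biotinylated cRNA and hybridised to 1 Affymetrix array each, per the labels' protocols. The deposited table holds linear intensities for 54675 probe sets. MAS5 is the tool named, per the submitters' processing notes; the sources used here give neither its settings nor a scaling target. All deposited intensities were above 0. MAS5 signals close to background are noisy, which makes ratios between dim values less reliable.

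Probe sets were named from the platform's annotation table, with symbols updated by Entrez identifier against RefSeq (GRCh38.p14), which matched 41043 of 41097 single-gene probe sets. Of the rest, 1801 had several genes and 11777 were unnamed here. Leaving out 58 probe sets of Y-linked genes and of 1 X-linked transcript left 19741 genes. Members were matched through Entrez identifier. Each gene was represented by whichever of its single-gene probe sets was brightest on average across all arrays. The floor, the filter, the 2-fold threshold and relative ratios are as given above. Members and the 11 gene lists were chosen with earlier results of these data known. Named genes were all members, EHMT2 and the 4 most alike genes per member that reached the 75th percentile. From each list and comparison, up to 4 genes with the largest absolute ratio were named. Some genes fell outside this rule and were named after their values were seen. These were NRP1 after the knockdown, INSM1, PTGS2 and, between the controls, NFKB1, DNAJB4, CDH1, ELAVL4, SNAP25, INA and TUBB3. Alternatives changed the scaling, floor, pseudocount, filter and choice of probe set. Python 3.11.15, pandas 2.3.3 and NumPy 2.4.6 were used.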

Additional observations from a re-analysis of the deposited data

Results flagged for a closer look

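CRMP1 differed in opposite directions between the lines when the population with more G9a was set against the one with less. In CL1-5 the control shRNA population over the G9a shRNA population had a relative log2 ratio of 2.68, which rests on the floor because the G9a shRNA signal of 2.76 was below it, and in CL1-0 the HA-G9a population over the vector population had one of -0.22. Each rests on 1 array per population, the difference between the lines was not tested, and the CL1-0 value is smaller than the SD of 0.51 between probe sets of 1 gene.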

How the results depend on the processing

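Of 112 member ratios recomputed under the alternatives, 108 moved by less than the SD between probe sets and 4 by more, and no ratio past 2-fold changed sign. Those 4 were, with a pseudocount of 16 in place of the floor, CRMP1 after the knockdown (-1.12, against -2.96 with the floor at the 10th percentile), DPYSL3 after the knockdown (-1.82) and CRMP1 between the controls (-3.79), and, with the median over probe sets, DPYSL4 with HA-G9a (0.10). A pseudocount shrinks ratios of dim genes by construction. The count of members at least 2-fold lower after the knockdown was 3 in the main setting, 2 as deposited (DPYSL2 at -0.89), and 1 with the filter at the 75th percentile, which CRMP1 and DPYSL3 do not reach in CL1-5. Between the controls it was 2 in the main setting, 1 with the pseudocount (DPYSL5 at -0.84) and 1 with the stricter filter. It was 0 with HA-G9a under every alternative run.

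Over all genes, the count past 2-fold after the knockdown was 2072 (1060 higher and 1012 lower), with 2198 higher and 618 lower as deposited, 1057 in all with the pseudocount, 847 with the stricter filter and 3244 with no filter. With HA-G9a it was 1178 (699 higher and 479 lower), with 558 higher and 711 lower after median scaling, 650 and 650 after quantile normalization, 270 in all with the pseudocount, 187 with the stricter filter and 2320 with no filter. Between the controls it was 3334, against 1993 with the pseudocount and 1637 with the stricter filter. On the probe sets that stand for the genes, members with both CL1-5 arrays below both CL1-0 arrays numbered 4 as deposited. In alternatives added after seeing the data, there were 4 after median scaling and 4 after quantile normalization, where 22.7% and 31.1% of all genes did the same. These include DPYSL3, whose second probe set overlapped between the lines as deposited, and DPYSL4, with a gap of 1.01-fold as deposited. No paired analysis was possible because each population was 1 array.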
